A study of Mus musculus with 4 samples.

Results

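H3K27ac, a histone acetylation that marks active promoters and enhancers, was examined around 10 genes of bone morphogenetic protein (BMP) signalling and iron sensing in mouse liver sinusoidal endothelial cells (LSECs). The genes were chosen by their function in the pathway: the ligands *Bmp2* and *Bmp6*, the receptors *Eng*, *Acvrl1*, and *Bmpr2*, the signal transducer *Smad1*, the target genes *Id1* and *Id3*, and the inhibitors *Smad6* and *Smad7*. They are 10 of the 21887 protein-coding genes to which the same counting was applied. The list was made with earlier results of these data known, so shares over all genes stand beside it as description only. For each gene, the gene body and 50 kb on each side formed a window, and peaks in it were split into those within 1 kb of an end of that gene and the remaining, distal peaks. Peaks of both libraries that overlapped by at least 1 bp were merged into a shared region.

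The data were 2 H3K27ac ChIP-Seq libraries of LSECs, called replicates 2 and 3 after their library names and each accompanied by an input of matching number. The labels set no conditions apart, so no contrast between conditions and no test could be made. The sample records name the cell type and the antibody but give no genotype, treatment, age, or sex for these mice, and do not say whether the libraries came from separate animals. In the methods, LSECs came from *Col4a1* fl/wt mice with or without *Cdh5* CreERT2, or from mice with *dCas9-KRAB* and that same transgene, and were purified with anti-CD146 beads and fixed with formaldehyde. *Cdh5* CreERT2 is a tamoxifen-inducible Cre recombinase driven by an endothelial promoter, and which of these lines gave the present libraries is not stated. Mice of the study were variously given tamoxifen and carbon tetrachloride or olive oil. The isolation protocol included a short culture of purified LSECs on type I collagen. Whether any of these steps applied to the present libraries is not stated either. The sample records describe sonicated chromatin and a ligation-based library kit, whereas the methods describe tagmentation.

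LSECs are the main hepatic source of BMP2 and BMP6, the ligands through which body iron stores control hepcidin. Both act on neighbouring hepatocytes, where BMP receptors phosphorylate SMAD1, SMAD5, and SMAD8 and these switch on *Hamp*, the hepcidin gene. Endothelial cells also receive BMP signals, chiefly BMP9 and BMP10, through a receptor complex of ALK1 (encoded by *Acvrl1*), BMPR2, and the co-receptor endoglin (*Eng*). The *Id* genes, which encode inhibitors of basic helix-loop-helix factors, are classical SMAD1 targets, and SMAD6 and SMAD7 are inhibitory SMADs that are themselves induced by the pathway and limit it.

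The list of replicate 2 held 26975 peaks and that of replicate 3 held 64498. Of these, 99.2% and 37.7%, respectively, overlapped a peak of the other library, giving 24199 shared regions. Depth is unknown because the lists hold no read counts, and fold enrichments over background were ranked only within their own list, as a percentile among all peaks of that library (100 being the strongest). Markers of the labelled cell type were present: 9 of 12 LSEC marker genes had a shared region within 1 kb of an end, and the other 3 (*Stab2*, *Clec4g*, and *Mrc1*) had a peak there in replicate 3 only. Of 25 markers of other liver cells (hepatocytes, cholangiocytes, stellate cells, Kupffer cells) and of lymphocytes, 1 (*Cd79a*) had a shared region, 3 (*Apoa1*, *Col1a1*, and *Epcam*) had a peak in replicate 3 only, and 21 had none.

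All 10 genes had a shared region within 1 kb of a gene end, which 44.1% of all protein-coding genes had. *Id1*, *Smad1*, and *Smad6* each had 2 such regions and the other 7 genes had 1, making 13 regions. Each gene also had a peak at an end in each library taken alone, where the share over all genes was 43.4% in replicate 2 and 53.9% in replicate 3. A further 58 shared regions were distal, 22 of them inside the gene bodies and 36 in the flanks. Every one of the 10 genes had between 3 and 13 distal regions, whereas 66.7% of all genes had at least 1 and the median gene had 2. The median over the 10 genes was 5, beside 8.5 over the 12 LSEC marker genes and 3 over 45 further BMP and iron genes.

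**Figure D1:**
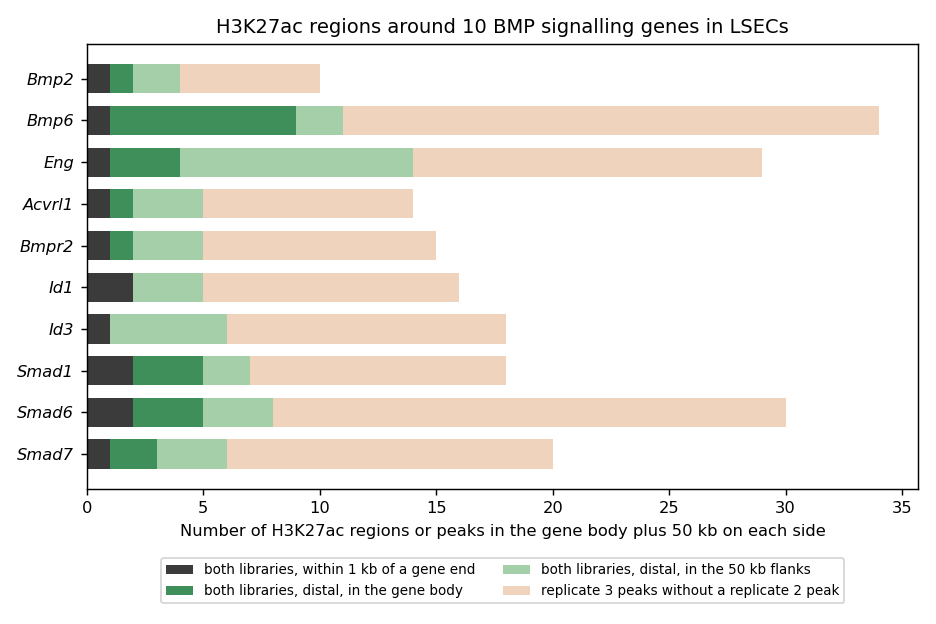
Number of H3K27ac regions in the gene body and 50 kb flanks of each of the 10 genes, with regions of both libraries in dark grey (at a gene end), dark green (distal, gene body), and light green (distal, flank), and peaks found in replicate 3 alone in beige. Eng has the most distal regions of both libraries (13) and Bmp6 the most in its body (8), while Bmp2 and Id1 have the fewest (3 each).

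Of the 58 distal regions, 12 lay within 1 kb of an end of another protein-coding gene, so they cannot be assigned to the member rather than to its neighbour from these data. The other 46 lay away from any such end. Some of these still lay inside another protein-coding gene, as in *Fpgs* and *Sh2d3c* near *Eng*, *Acvr1b* near *Acvrl1*, and *Ctif* near *Smad7*. No distal region, in either class, was linked to a member by these data. When counted in this stricter way, the number ranged from 1 at *Id1* to 9 at *Bmp6* and *Eng*, against a median of 1 over all genes.

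Promoter sequences of *Bmp6*, *Eng*, *Bmpr2*, *Id3*, *Smad1*, and *Smad6* were matched in the RefSeq promoter set for GRCm38.p6, which spans 250 bases before to 50 after the start of transcription. *Bmp2*, *Acvrl1*, *Id1*, and *Smad7* had no entry. The 4 promoters with a match to a SMAD-binding sequence are printed 5′ to 3′, with the match in capitals. Such letters can be recognised by the pathway's own transcription factors but are found in many promoters. All 4 starts had a shared region within 1 kb, but replicate 2 peaks covered 0 bases of the *Bmp6* and *Bmpr2* promoters. The capitals mark CAGAC, a short SMAD-binding element that reads GTCTG where the match is on the other strand, or the palindrome GGCGCC, a site preferred by SMAD1 and SMAD5. All lie on the plus strand, at chr13:38345466-38345765 for *Bmp6*, chr2:32646345-32646644 for *Eng*, chr1:59764029-59764328 for *Bmpr2*, and chr4:136143572-136143871 for *Id3*.
Bmp6: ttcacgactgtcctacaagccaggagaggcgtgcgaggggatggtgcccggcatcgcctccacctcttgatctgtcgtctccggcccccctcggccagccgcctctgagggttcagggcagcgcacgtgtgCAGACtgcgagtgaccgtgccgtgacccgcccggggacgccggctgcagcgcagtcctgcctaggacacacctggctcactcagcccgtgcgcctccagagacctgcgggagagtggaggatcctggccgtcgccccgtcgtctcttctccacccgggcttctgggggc
Eng: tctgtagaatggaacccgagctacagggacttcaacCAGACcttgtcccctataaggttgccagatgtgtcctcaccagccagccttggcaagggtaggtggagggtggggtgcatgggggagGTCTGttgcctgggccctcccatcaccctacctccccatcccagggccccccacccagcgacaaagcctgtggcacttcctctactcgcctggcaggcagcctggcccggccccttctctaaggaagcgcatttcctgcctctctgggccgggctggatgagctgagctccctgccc
Bmpr2: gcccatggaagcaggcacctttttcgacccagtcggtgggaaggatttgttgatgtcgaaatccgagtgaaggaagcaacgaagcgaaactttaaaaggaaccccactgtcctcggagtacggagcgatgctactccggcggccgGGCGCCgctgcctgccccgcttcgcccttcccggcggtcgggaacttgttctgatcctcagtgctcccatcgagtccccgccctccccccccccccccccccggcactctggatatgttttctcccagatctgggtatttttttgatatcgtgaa
Id3: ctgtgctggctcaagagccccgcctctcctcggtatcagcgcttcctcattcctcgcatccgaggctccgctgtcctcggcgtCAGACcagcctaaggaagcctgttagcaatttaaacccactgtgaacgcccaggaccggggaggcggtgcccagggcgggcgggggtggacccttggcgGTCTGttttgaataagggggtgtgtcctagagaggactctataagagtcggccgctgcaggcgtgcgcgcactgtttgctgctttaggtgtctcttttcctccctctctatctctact

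With positions counted from the first transcribed base as 0, CAGAC began at −119 in *Bmp6*, at −214 and −127 in *Eng*, and at −167 and −68 in *Id3*, and GGCGCC began at −105 in *Bmpr2*. The core of the antioxidant response element, TGACNNNGC, which is read by NRF2, began at −108 in *Bmp6* and at −186 and 28 in *Smad6*. No match overlapped another, and the ETS sequence CCGGAAGT, bound by factors common in endothelium, was in none of the 6 promoters. Other sequences that ETS factors bind were not searched for, so their absence cannot be read from this. Both strands were searched. Among 32851 mouse promoters of the same length, CAGAC was in 49.6%, TGACNNNGC in 12.4%, GGCGCC in 11.9%, and CCGGAAGT in 3.89%. With these shares, matches in some of 6 promoters do not set these genes apart. A match is a run of letters and not a measured binding site.

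The 6 promoters differed in how far the acetylated stretch reached into them. In replicate 2, peaks covered all 300 bases at *Id3* and *Smad6*, 228 at *Smad1*, 96 at *Eng*, and 0 at *Bmp6* and *Bmpr2*. At the last 2 genes the replicate 2 peak stopped upstream, 454 bp before the start of *Bmp6* and 401 bp before that of *Bmpr2*. Replicate 3 peaks were wider and spanned the start of all 6 genes, covering 300 bases at *Bmp6*, *Id3*, *Smad1*, and *Smad6*, 297 at *Bmpr2*, and 232 at *Eng*. A shared region lay within 1 kb of the annotated start in 6 of these 6 genes, and in 45.9% of the 17492 genes with such a start.

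**Figure D2:**
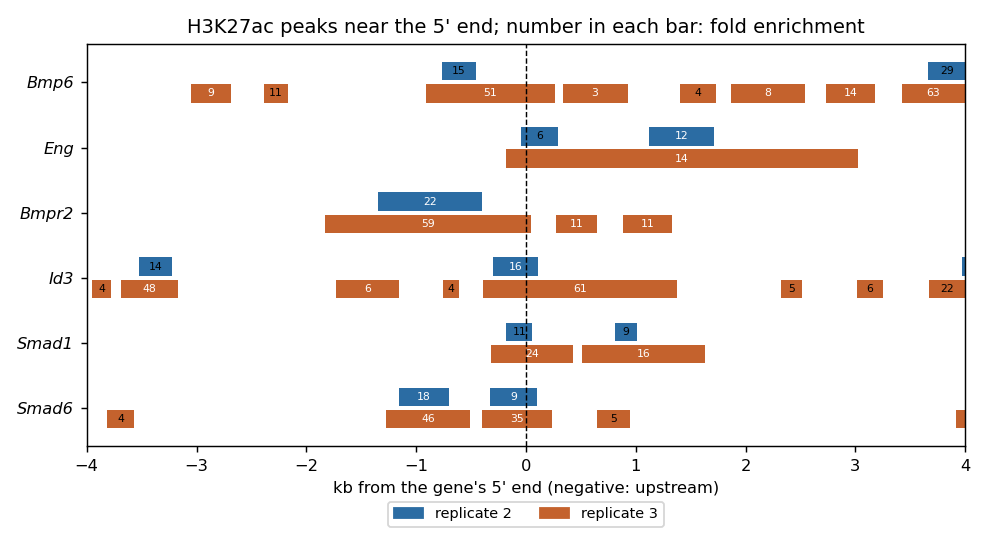
H3K27ac peaks of replicate 2 (blue) and replicate 3 (orange) within 4 kb of the 5′ end of the 6 genes whose start is annotated, drawn in the direction of transcription, with kb from the start on the x axis and the fold enrichment of each peak written in its bar. The replicate 2 peaks of Bmp6 and Bmpr2 end 454 and 401 bp before the start, whereas a replicate 3 peak crosses the start of all 6 genes.

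*Bmp6* encodes the ligand whose endothelial production follows liver iron. The gene (chr13:38345716-38500314, plus strand) is the longest of the 10 at 155 kb. Its start carried a shared region, chr13:38344802-38345980, with a fold enrichment of 15.3 in replicate 2 (percentile 72.2) and 51.0 in replicate 3 (percentile 91.8). A further 10 shared regions were distal, a count at percentile 98.3 among all genes and, per 10 kb of window, at percentile 85.9. Of these, 8 lay in the gene body, more than in any other member.

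The strongest *Bmp6* region was not at the start but just inside the gene. At chr13:38349140-38351902, 3.42 kb downstream of the start, the fold enrichment was 29.1 in replicate 2 and 63.3 in replicate 3, the highest values of the whole window in both libraries. In replicate 3 the start came next. Among distal regions, the second by replicate 3 was 91.6 kb into the gene, at chr13:38437363-38438332, with 17.7 and 44.0, and the third was 64.6 kb in, at chr13:38410310-38410957, with 16.5 and 31.5. These 3 distal regions all lay inside the gene and stood at percentiles 75.8 to 93.9 in replicate 2 and 83.9 to 94.7 in replicate 3. Of the 2 flank regions, 1 lay at an end of *Txndc5*, which encodes an endoplasmic reticulum disulfide isomerase. Of 34 replicate 3 peaks in the *Bmp6* window, 23 had no replicate 2 counterpart, with fold enrichments of 3.34 to 13.7.

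*Bmp2* encodes the second iron-regulating ligand of LSECs. The gene is short (10.7 kb, chr2:133552159-133562896), and its window held fewer regions than that of *Bmp6*. A single shared region lay at the lower-coordinate end, chr2:133551852-133553422, with fold enrichments of 11.5 in replicate 2 (percentile 58.6) and 32.6 in replicate 3 (percentile 84.5). The upper-coordinate end had a weak peak in replicate 3 only, 361 bp away, with a fold enrichment of 5.40. Of the 3 distal regions, the strongest in replicate 3 was in the gene body, chr2:133554635-133555180, with 12.1 and 29.5. Another lay 45.5 kb from the gene, at chr2:133505760-133506677, with 12.2 and 15.6, and the last 1.17 kb from it, at chr2:133550090-133550994, with 7.93 and 8.84. None was at an end of another protein-coding gene. The distal count of *Bmp2* was at percentile 68.1 among all genes, and at 73.8 per 10 kb.

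Among the receptors, *Eng* had the most distal regions of all 10 genes and 1 of the weakest gene ends. The gene (chr2:32646595-32682669, plus strand, 36.1 kb) encodes endoglin, the co-receptor that presents BMP9 and BMP10 to ALK1. At its start the fold enrichment was 6.10 in replicate 2 (percentile 18.4) and 14.1 in replicate 3 (percentile 66.1). The replicate 3 peak there was 3203 bp wide, the widest shared peak at an end of the 10 genes, and a second replicate 2 peak under it, at chr2:32647717-32648309, reached 11.6. The summit of the replicate 3 peak, at position 32647868, fell within this second peak, so the higher signal of both libraries was inside the gene rather than over the start.

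*Eng* had 13 distal regions, at percentile 99.5 among all genes and at 99.4 per 10 kb. Its lead over *Bmp6* depended on the counting. In replicate 3 alone *Bmp6* had 32 distal peaks and *Eng* 28, and with regions within 5 kb joined they had 9 and 8. They were level at 9 with a q-value of 1e-05 or less or with other gene ends left out, and at 8 in 25 kb flanks. Only 3 were in the gene body and 10 in the flanks, where other genes lie close. The strongest was in the body of *Sh2d3c*, a signalling adaptor gene, at chr2:32727341-32727891, 44.7 kb from the nearer end of *Eng*, with 27.7 in replicate 2 and 55.7 in replicate 3. Next came chr2:32714603-32715719, with 24.4 and 51.3, which lay in no other protein-coding gene, and chr2:32693884-32694594 in *Fpgs*, the folylpolyglutamate synthase gene, with 23.0 and 43.4. Of the 13 regions, 4 lay at ends of neighbours, namely *St6galnac6* with *Ak1*, *Ak1* alone, *Cdk9*, and *6330409D20Rik*. The region within the *Eng* body that was strongest, 14.9 kb from the start, reached 10.4 and 26.1.

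*Acvrl1*, which encodes the type I receptor ALK1, had a shared region at the upper-coordinate end alone. The gene spans chr15:101128522-101145336 (16.8 kb), and its gene-end region was chr15:101145464-101145849, with 6.08 in replicate 2 (percentile 12.7) and 23.9 in replicate 3 (percentile 78.6). At the lower-coordinate end the nearest peak was 12.7 kb away in replicate 2 and 4.36 kb away in replicate 3. The strand of *Acvrl1* was not read from the tables used here, so these ends were not named as 5′ or 3′. Of 4 distal regions (percentile 77.5), 1 was in the gene body, with 5.42 and 10.7. The strongest in replicate 3 lay in the body of *Acvr1b*, which encodes the activin receptor ALK4, at chr15:101189978-101192011, with 16.9 and 48.2. The next 2 were at ends of *Acvr1b*, at chr15:101173653-101174229 with 19.0 and 43.6, and of *Fignl2*, at chr15:101077623-101079272 with 8.81 and 41.4. The regions nearest to *Acvrl1* itself were therefore the weakest of its window in both libraries.

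*Bmpr2*, the type II receptor gene, differed from *Acvrl1* in the strength of its gene end. Its start region, chr1:59762449-59764325, had fold enrichments of 22.4 in replicate 2 (percentile 86.9) and 59.3 in replicate 3 (percentile 93.9). That was the strongest gene end of the 10 in replicate 2 and the second strongest, after *Id3*, in replicate 3. The gene is long (114 kb, chr1:59764279-59878081, plus strand) but held a single shared region in its body, chr1:59797058-59797446, 32.8 kb from the start, with 10.4 and 22.8. The other 3 distal regions were in the flanks. At chr1:59738785-59740498, 23.8 kb upstream and in no other protein-coding gene, the values were 23.0 and 45.3. The strongest of the window, chr1:59912426-59913941, lay at an end of the neighbour *Fam117b*, with 27.8 and 91.2. The density of distal regions per 10 kb was the lowest of the 10 genes, at 0.187 (percentile 63.1).

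**Figure D3:**
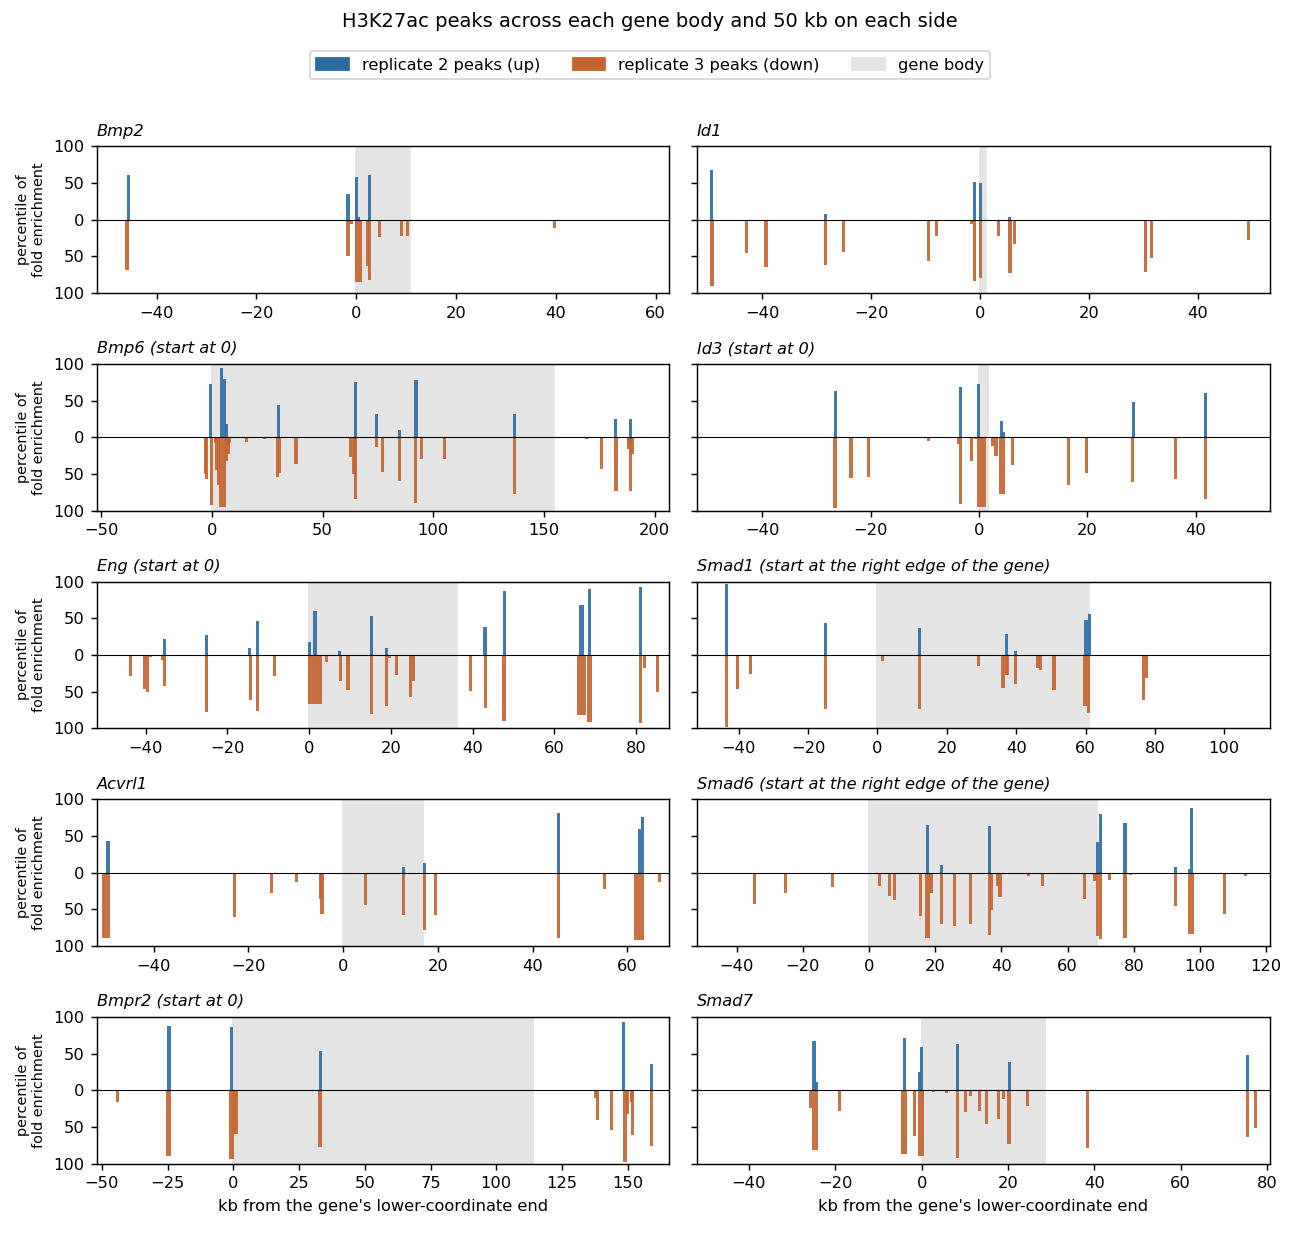
H3K27ac peaks across the body (grey) and 50 kb flanks of the 10 genes, with kb from the gene's lower-coordinate end on the x axis and, on the y axis, the percentile of each peak's fold enrichment within its own list, replicate 2 upwards and replicate 3 downwards. Bars are widened so that narrow peaks are visible, and every replicate 2 peak stands over a replicate 3 peak, while Bmp6 has 8 distal regions of both libraries within its body and Bmpr2 has 1.

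*Smad1* encodes the receptor-activated SMAD that carries BMP signals to the nucleus. The gene (chr8:79338395-79399428, minus strand, 61.0 kb) had 2 regions at its 5′ end. The region over the start, chr8:79399002-79399745, had 10.8 in replicate 2 (percentile 55.4) and 24.2 in replicate 3 (percentile 78.9), and the region 508 bp downstream, chr8:79397801-79398920, had 9.49 and 16.3. In its body lay 3 distal regions, of fold enrichment 5.31 to 8.11 in replicate 2 and 5.86 to 18.9 in replicate 3. They were all weaker than the start. The strongest shared region in any of the 10 windows in either library was in the *Smad1* flank, chr8:79294422-79295469, with 33.1 and 96.5, but it lay at an end of *Mmaa*, a gene of cobalamin metabolism. The other 2 of the leading 3 distal regions were tied in replicate 3, at 18.9, namely chr8:79323116-79323526 in the flank and chr8:79350270-79350668 in the body, with 8.81 and 8.11 in replicate 2.

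The target genes *Id1* and *Id3* are both very short, at 1.16 and 1.57 kb, so all their distal regions were in the flanks. *Id3* (chr4:136143822-136145392, plus strand) had 1 region over its start, chr4:136143429-136145198, with 15.6 in replicate 2 (percentile 73.2) and 60.9 in replicate 3 (percentile 94.2). In replicate 2 this was the strongest peak of the window, the single case among the 10 genes in that library in which a gene end led. In replicate 3 it was exceeded by a region 26.1 kb upstream, chr4:136116922-136117688, with 12.7 and 68.5. Closer to the gene, 3.17 kb upstream, chr4:136140130-136140652 had 14.2 and 48.0. The third of the 5 distal regions, chr4:136185265-136185848 with 12.0 and 31.1, lay in the body of *E2f2*, a cell cycle gene, and a region at an end of *E2f2* had 9.49 and 12.0. The 2 upstream regions of *Id3* that lay in no other protein-coding gene were at percentiles 63.1 and 69.2 in replicate 2 and 95.6 and 90.9 in replicate 3.

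*Id1* (chr2:152736251-152737410) had 2 gene-end regions. The region 0.865 kb outside the lower-coordinate end, chr2:152734978-152735386, had 10.2 in replicate 2 (percentile 51.7) and 31.5 in replicate 3 (percentile 83.9). The region across that end, chr2:152735996-152736663, had 9.76 and 25.1, so both were near the middle of the list in replicate 2 and in its upper part in replicate 3. Of its 3 distal regions, 2 were at ends of neighbours: chr2:152686720-152687374 at *Mcts2*, with 13.8 and 45.6, and chr2:152707707-152708040 at *H13*, with 5.42 and 12.0. The remaining region, 3.97 kb past the upper-coordinate end at chr2:152741376-152742090, had 4.88 and 17.9. Away from neighbouring gene ends *Id1* therefore had 1 distal region (percentile 58.7 among all genes counted in that way), the fewest of the 10, and *Id3* had 4 (percentile 90.5).

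The inhibitor genes *Smad6* and *Smad7* shared a pattern in which the 5 or 6 distal regions were all away from the ends of other protein-coding genes, as was otherwise true of *Bmp2* alone. *Smad6* (chr9:63953076-64022085, minus strand, 69.0 kb) had 2 gene-end regions. Over the start, chr9:64021848-64022485 had 8.68 in replicate 2 (percentile 41.7) and 34.5 in replicate 3 (percentile 85.5). The region 534 bp upstream, chr9:64022593-64023356, was stronger in both libraries, with 18.3 and 45.6.

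Distal regions of *Smad6* were split evenly, with 3 in the body and 3 upstream. The strongest in replicate 3 was in the body, 50.6 kb downstream of the start at chr9:63970105-63971472, with 12.9 and 44.0. It was followed by chr9:64030117-64030701, 8.06 kb upstream, with 13.8 and 41.0, and by chr9:63989102-63989575 in the body, with 12.8 and 33.0. In replicate 2 the order differed, since chr9:64049348-64051313, 27.3 kb upstream, led with 23.0 but came after the other 3 in replicate 3, with 30.9. Of 30 replicate 3 peaks in the *Smad6* window, 22 had no replicate 2 peak, nearly as many as the 23 of *Bmp6*.

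*Smad7* (chr18:75367365-75395935, 28.6 kb) had a region at its lower-coordinate end, chr18:75366435-75367963, with 11.5 in replicate 2 (percentile 58.6) and 43.0 in replicate 3 (percentile 89.2). Of its 5 distal regions, 2 were in the body. The strongest in replicate 3, chr18:75375437-75375984, lay 8.07 kb inside the gene, with 12.7 and 50.6. It was followed by chr18:75362696-75364077, 3.29 kb outside the gene, with 14.9 and 37.0, and by chr18:75341975-75343339, 24.0 kb outside it, with 13.6 and 26.4. All 3 thus exceeded the gene end in replicate 2, and 1 of them did so in replicate 3. The strongest peak of any of the 10 windows that was found in replicate 3 alone was also at *Smad7*, chr18:75405642-75406084, with a fold enrichment of 23.6 (percentile 78.4).

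Across the 10 genes, the 13 gene-end regions, by their peaks within 1 kb of the end, had a median fold enrichment of 10.8 in replicate 2, ranging from 6.08 to 22.4, and of 32.6 in replicate 3, ranging from 14.1 to 60.9. Their median percentiles were 55.4 and 84.5, beside 53.8 and 81.0 over all 24199 shared regions. For the 58 distal regions the medians were 9.48 (4.39 to 33.1) and 21.7 (4.72 to 96.5). Their median percentiles were 47.2 and 76.7, and the range of the gene ends lay inside that of the distal regions in both libraries. The strongest peak of the window was distal for 9 genes in replicate 2 and for 8 in replicate 3. Once distal regions at the ends of other genes were left out, this held for 7 and 5 genes. The windows held 65 distal and 15 gene-end peaks in replicate 2, and 183 and 21 in replicate 3. The same count over all genes was not made, so a distal maximum cannot be read as a trait of these genes.

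The libraries ranked these regions alike. Spearman's rho of the fold enrichments in replicates 2 and 3 was 0.84 over the 71 member regions, and also 0.84 over all shared regions. These are descriptions, since regions of a window share their chromatin and are not independent. All 80 replicate 2 peaks in the 10 windows overlapped a replicate 3 peak, beside 99.2% of that whole list. In contrast, 71 of 204 replicate 3 peaks (34.8%) overlapped a replicate 2 peak, beside 37.7% of that whole list. The 133 others had fold enrichments from 2.77 to 23.6 with a median of 5.86, at percentile 27.6 of their list. The peaks seen in replicate 3 alone were thus mostly among its weaker ones. This was also so over the whole list, where unshared replicate 3 peaks had a median of 6.20.

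**Figure D4:**
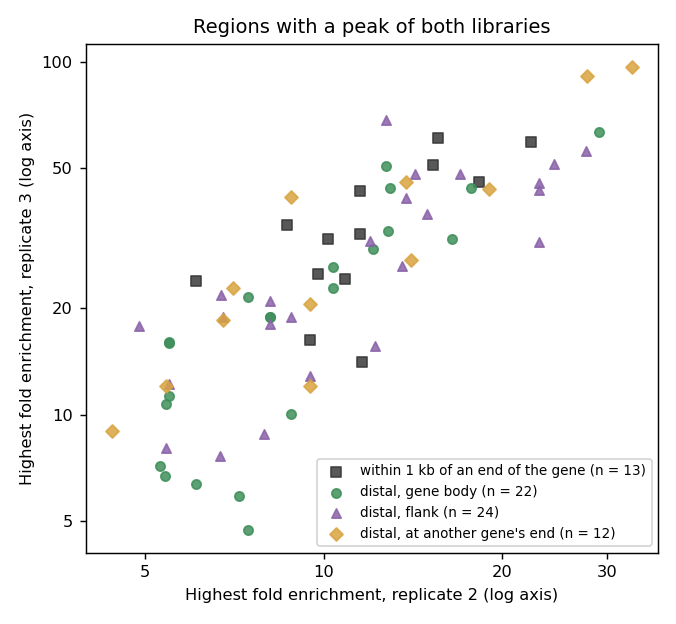
Highest fold enrichment in replicate 2 (x axis, log scale) against that in replicate 3 (y axis, log scale) for the 71 regions of both libraries in the 10 windows, with squares for gene ends (n = 13), circles for distal regions in gene bodies (n = 22), triangles for distal flank regions (n = 24), and diamonds for distal regions at an end of another gene (n = 12). Points rise together (Spearman's rho 0.84), and the 2 strongest regions in replicate 3 are diamonds, at 96.5 and 91.2.

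Overlap of the exact intervals was much less common than overlap by 1 bp. When each peak had to cover at least 50% of the other, 3 of the 10 genes kept a gene-end region, namely *Bmpr2*, *Id1*, and *Smad6*, beside 22.4% of all genes. Shared gene-end peaks had a median width of 341 bp in replicate 2 and 1120 bp in replicate 3, so most replicate 2 peaks were a small piece of the replicate 3 peak. The statement that all 10 genes had a shared region near an end therefore rests on overlap by at least 1 bp. It also rests on the 1 kb distance and on either end of a gene being counted.

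The other genes of the pathway were more mixed. Of 45 further BMP and iron genes, 25 (55.6%) had a shared region within 1 kb of a gene end, beside 44.1% of all protein-coding genes. A peak there in replicate 3 only was found for 5, and 15 had none in either library. Of 5 other ligand genes, 0 had a peak at a gene end in either library: *Bmp4*, *Bmp5*, *Bmp7*, *Gdf2*, and *Bmp10*. The last 2 encode BMP9 and BMP10, the ligands of the endoglin and ALK1 complex.

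Among 8 other receptors and co-receptors, 5 had a region of both libraries: *Acvr1*, *Acvr2a*, *Acvr2b*, *Tgfbr3* (betaglycan), and *Neo1* (neogenin). The strongest in replicate 3 was *Acvr2b*, a type II receptor, with 23.7 in replicate 2 and 88.2 in replicate 3. *Bmpr1a*, which encodes the type I receptor ALK3, had a peak in replicate 3 only, and *Bmpr1b* and *Hjv* (hemojuvelin, the hepatocyte co-receptor of iron sensing) had none. Of 3 other *Smad* genes, *Smad4*, the common partner SMAD, had 19.4 and 63.7, *Smad5* also had a shared region, and *Smad9* had no peak at an end.

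Of 5 other target genes, *Id2* and *Id4* had shared regions, with 22.9 in replicate 2 and 81.5 in replicate 3 at *Id2*. *Atoh8* had a replicate 3 peak only. *Hamp* and its neighbour *Hamp2*, which are expressed in hepatocytes, had none. Among 9 antagonists and inhibitors, *Twsg1*, *Bambi*, *Smurf1*, and *Smurf2* had shared regions. *Bambi*, which encodes a pseudoreceptor that dampens signalling at the membrane, had 31.7 and 145. *Nog* and *Bmper* had a replicate 3 peak only, and the secreted antagonist genes *Chrd*, *Grem1*, and *Fst* had none. The shares with a shared region, 40% of targets and 44.4% of antagonists and inhibitors, were near the 44.1% of all genes.

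Genes of iron uptake, sensing, storage, and export had the highest share of these lists of other genes. Shared regions were found at ends of 12 of 15 (80%), beside 44.1% of all genes. These were *Tfrc*, *Slc40a1*, *Slc11a2*, *Slc39a14*, *Fth1*, *Ftl1*, *Hmox1*, *Ireb2*, *Aco1*, *Ncoa4*, *Nfe2l2*, and *Keap1*. *Aco1*, which encodes the iron regulatory protein IRP1, was the strongest in replicate 3, with 43.4 in replicate 2 and 103 in replicate 3. *Nfe2l2* and *Keap1* encode NRF2 and its inhibitor. *Hfe* had a peak in replicate 3 only, and *Tfr2* and *Tmprss6*, whose products take part in iron sensing on hepatocytes, had none.

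**Figure D5:**
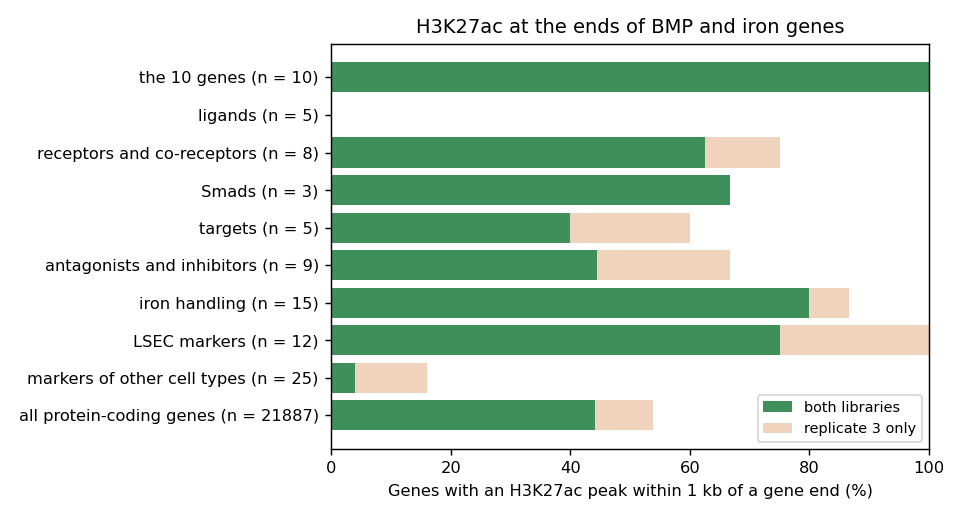
Percentage of genes with an H3K27ac peak near an end (1 kb or less), in both libraries (green) or in replicate 3 only (beige), for the 10 genes, the lists of other BMP and iron genes, the marker lists, and all protein-coding genes. All of the 10 genes and 12 of 15 iron genes have a region of both libraries, none of the 5 other ligands does, and 44.1% of all 21887 genes do.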

How the data were processed

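H3K27ac ChIP-Seq peaks were taken from the lists that the authors deposited for 2 LSEC libraries, 1 list per library. Per the labels, the submitters' processing notes name cutadapt, BWA 0.7.17, Picard 1.67, MACS2 2.0.10, bedtools 2.27.1, and mm10, whose coordinates are those of GRCm38. The peak threshold and the use of the inputs are not given in the sources used here. The authors' fold enrichment is a ratio of signal to background, and the deposited lists also give the −log10 of p and q and a score made from the latter. All deposited q-values had a −log10 of at least 2.01. A deeper library gives more peaks and wider ones, so counts depend on depth, which is unknown.

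Protein-coding genes of GRCm38 on 21 chromosomes were taken from the RefSeq gene table. Peaks, gene windows, and overlaps were counted in Python 3.11.15 (pandas 2.3.3, numpy 2.4.6, scipy 1.17.1) and drawn with matplotlib 3.10.9. The counting was tested on simulated data, in which the gene-end and distal counts of all 200 planted genes were recovered. Percentiles are mean ranks among all genes, or among all peaks of a list, with ties sharing a rank. The genes named were the 10 members, the list of 45 further genes (1 more is not reported here), coding genes with an end within 1 kb of a distal shared region, and the genes that hold a named region. The regions named were the 3 strongest distal regions of each member in replicate 3, and regions outside that rule were chosen after their values were seen. The 10 genes and all lists were chosen with earlier results of these data known. The 2 inputs were not analysed here, and exons and introns were not told apart.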

Additional observations from a re-analysis of the deposited data

How the results depend on the processing

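No paired analysis was possible because the labels give both H3K27ac libraries the same group and no test was made. Over the 10 genes, 5 results were recomputed under 28 alternatives, of which 20 stayed within 1.5 times and 8 did not. Distal counts of single genes were recomputed 110 times, of which 76 stayed within 1.5 times and 34 did not. For example, with the reciprocal overlap *Smad6* fell from 6 to 2 and *Acvrl1* from 4 to 1, while *Bmp6* kept 7 of 10. With a reciprocal overlap of at least 50%, 3 genes kept a gene-end region, and there were 4 gene-end and 31 distal regions. With the 5′ end alone, 6 genes counted, since a start was matched for 6. Windows of 25 and 100 kb gave 37 and 91 distal regions. With 1 library at a time, the genes with a peak at an end numbered 10 to 10, gene-end peaks 15 to 21, and distal peaks 65 to 183, the higher values being those of replicate 3 without replicate 2. A q-value of 1e-05 or less gave 13 gene-end and 47 distal regions, and equal numbers of strongest peaks gave 13 and 48. In replicate 3 alone, the distal count rose by over 1.5 times at each of the 10 genes, and *Bmp6* (32) passed *Eng* (28). The median over all genes rose as well, from 2 to 5. Under the alternatives in which all genes were recounted, which leaves out the joining of regions, 7 to 10 of the 10 genes lay above the median of all genes, and the others lay at it. The cause of these changes was not tested beyond the construction of each alternative. Without read counts, the depth limit of either library could not be given.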

Other observations

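Ends of noncoding genes also lay within 1 kb of some of the regions. At the gene ends themselves these were *Gm47990* at the start of *Bmp6*, *Gm51578* at the start of *Smad1*, and *Gm20544* at the lower-coordinate end of *Smad7*. Among distal regions they were *Gm31834* beside *Txndc5* in the *Bmp6* window, the microRNA genes *Mir2861* and *Mir3960* with *Gm33457* beside *Cdk9* in the *Eng* window, *Gm4890* beside *Mmaa* in the *Smad1* window, and *1110036E04Rik* upstream of *Smad6*. The last region, chr9:64049348-64051313, had no coding gene end within 1 kb and was the strongest distal region of *Smad6* in replicate 2, at 23.0.

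Of the 20 ends of the 10 genes, 11 lay within 1 kb of a peak of both libraries. Apart from *Id1*, whose ends are 1.16 kb apart, every gene had 1 such end. The far end of *Bmpr2* was the most isolated in replicate 2, with the nearest peak 34.4 kb away, followed by that of *Bmp6* at 17.8 kb and that of *Smad6* at 17.2 kb. In replicate 3 the nearest peaks to these 3 ends were 14.7, 14.5, and 3.06 kb away.

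The strongest peaks found in replicate 3 alone lay in flanks as well as in gene bodies. After the flank peak of *Smad7*, in *Smad6*, chr9:63978643-63979078 had a fold enrichment of 17.6 and chr9:63983528-63983917 had 15.9, both between distal regions of both libraries. In *Bmp6*, chr13:38348448-38348890, just before the strongest region of that gene, had 13.7. In flanks, chr2:152766476-152766856 at *Id1* had 17.1 and chr4:136160181-136160483 at *Id3* had 13.7.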
